A study of Mus musculus with 10 samples.

Results

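The immediate-early genes followed here were Fos, Fosb, Jun, Junb, Egr1, Ier2, Ier3, Dusp1, Dusp5 and Sik1, read from RNA sequencing of whole mouse thymus. They are 10 of the 35375 features in the table, all 10 were present, and all 10 passed the filter on low counts that left 19511 features for testing. The list was drawn up by name with the levels in these libraries already known, and Dusp5, Sik1 and Ier3 were chosen by their measured difference between thymi from animals numbered 44 to 51 and animals numbered 56 to 63. For that reason the difference between animal numbers is given below as a description, without a test, and the values of these 3 genes support nothing about it.

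The thymi came from C57BL/6J mice 3 days after birth. Usp7, which encodes a deubiquitinating enzyme, was knocked out in cells of the hematopoietic system, on both alleles (homozygous KO, n = 3) or on 1 allele (heterozygous KO, n = 3), and the third group was wild type (n = 4). The design describes 2 wild types with induced cre, the recombinase that cuts out the marked gene segment, and 2 without it, and the labels do not say which library is which. The titles of wild type replicates 1 and 2 carry the word wt 2 times and those of replicates 3 and 4 carry it 1 time, and the column headings of replicates 3 and 4 in the table add the word het. All 4 were kept as wild type after their titles. The promoter driving cre is not given in the sources used here, and whole thymus also holds cells outside the hematopoietic system, such as epithelium.

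Immediate-early genes are switched on within minutes of a stimulus, without a need for new protein. Kinases of the MAP kinase family and cyclic AMP signalling reach factors already bound at their promoters, chiefly SRF with its ELK partners at the CArG box and CREB at the cyclic AMP response element (CRE). Their products are transcription factors, which pass the signal to later genes, and inhibitors such as the DUSP phosphatases, which end it. In thymocytes they are induced by engagement of the T-cell receptor. Because they respond so fast, the handling of a tissue before lysis is also known to induce them.

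Library totals ranged from 39.8 to 122.4 M counts. Levels are given as CPM, counts per M of the library total after TMM scaling. Usp7 was at 303 to 422 CPM in homozygous KO, 472 to 516 CPM in heterozygous KO and 589 to 676 CPM in wild type. Its counts were thus reduced and not absent. Counts per gene do not tell whether the remaining reads come from intact Usp7 RNA. The 10 thymocyte markers examined, among them Cd3e, Cd4, Cd8a and Rag1, were detected in every group and summed to between 9136 and 12335 CPM. Along the second principal component, which held 13.1% of the variance, the libraries of animals 44 to 51 lay on 1 side and those of animals 56 to 63 on the other. The range 44 to 51 held 1 homozygous KO, 1 heterozygous KO and 3 wild types, and the range 56 to 63 held 2, 2 and 1. The number is part of each title, and what it stands for (litter, day or order of handling) is not given. Xist was at 1913 CPM or more in 4 libraries, homozygous KO replicate 3 and wild type replicates 2, 3 and 4. It was at 1.12 CPM or less in the other 6, which include all 3 heterozygous KO libraries. Xist level thus largely goes with genotype in heterozygous KO against wild type, and the 2 cannot be fully told apart there. Nothing states how the animals relate to each other, so p-values measure the spread between these libraries only. In whole tissue, fewer cells of a type and less RNA per cell cannot be told apart.

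Per kilobase of exon, so that genes can be set side by side, the median level over the 10 libraries was highest for Dusp5 at 43.9 CPM per kb and Junb at 37.7 CPM per kb. Ier2 followed at 28.4, Dusp1 at 25.4, Sik1 at 21.1, Jun at 18.8, Egr1 at 12.8 and Fos at 9.28 CPM per kb. Ier3 at 4.09 and Fosb at 1.70 CPM per kb were lowest. The libraries of 1 gene differed by 2.08-fold for Ier2 and up to 15.2-fold for Fosb, which is wider than most steps between neighbours in this order. The lowest raw count of any member in any library was 77, for Ier3.

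**Figure D1:**
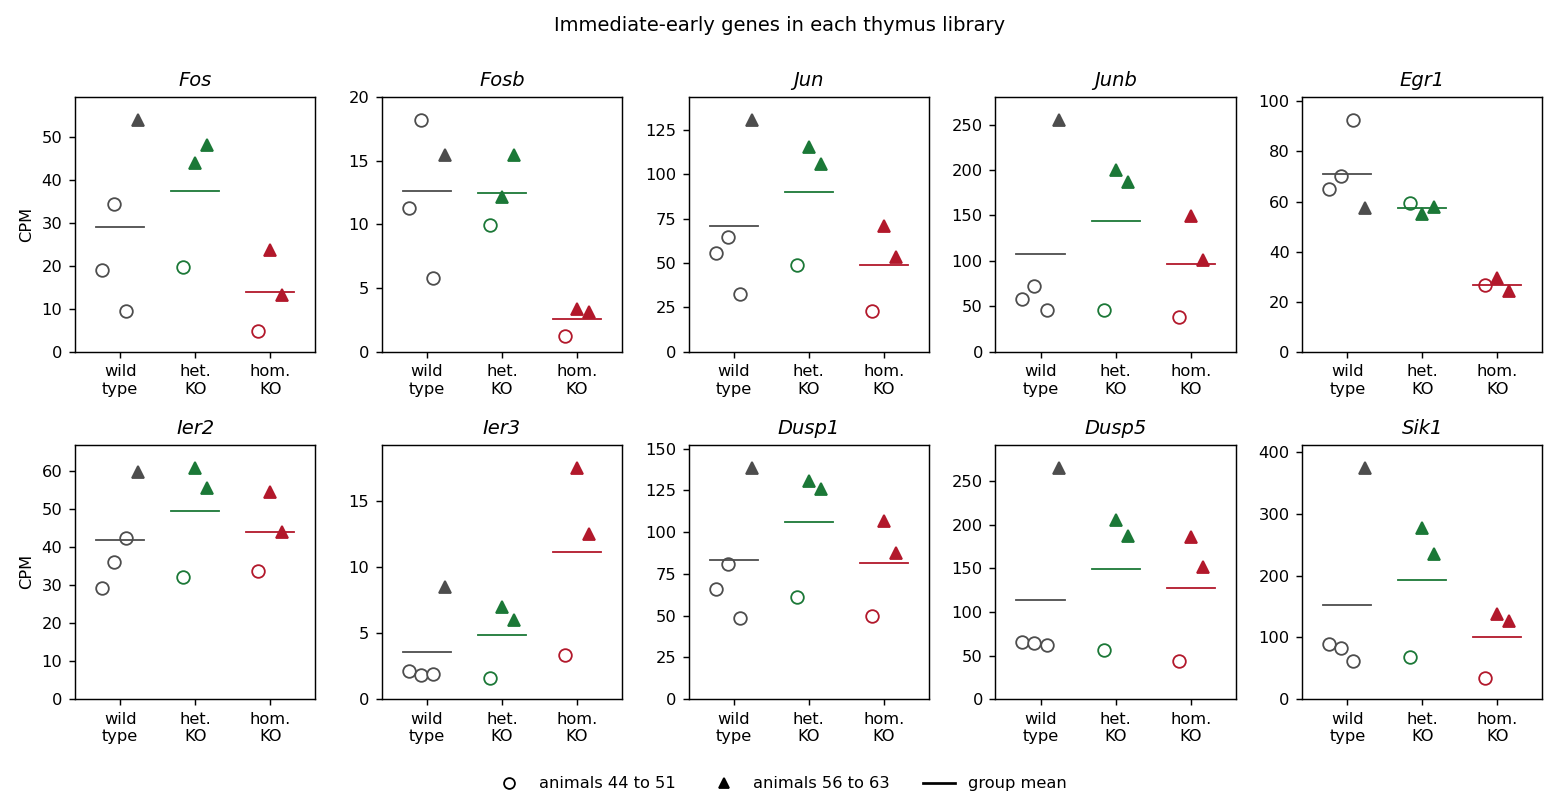
CPM of each of the 10 genes in each of the 10 libraries, with 1 panel per gene and its own linear axis from 0. Open circles are animals 44 to 51, filled triangles animals 56 to 63, and lines the group means. Egr1 and Fosb separate homozygous KO from both other groups, while in most other panels the triangles lie above the circles.

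Egr1 and Fosb fell in homozygous KO. Egr1, a zinc-finger transcription factor induced by the T-cell receptor through the ERK kinases, was at 26.7, 29.5 and 24.1 CPM in the 3 homozygous KO libraries. It was at 59.3, 54.8 and 57.9 CPM in heterozygous KO and at 64.8, 70.1, 92.5 and 57.2 CPM in wild type. All 3 homozygous KO values lay below all 7 others, and the heterozygous KO and wild-type values overlapped. The log2 fold change was -1.41 (SE 0.14, adjusted p = 4.64e-05) against wild type and -1.10 (SE 0.15, adjusted p = 4.83e-04) against heterozygous KO (edgeR quasi-likelihood test, Benjamini-Hochberg over all 19511 genes).

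Fosb encodes an AP-1 subunit of the FOS family, which binds DNA only as a dimer with a JUN protein. Its level was 1.20, 3.34 and 3.15 CPM in homozygous KO, 9.93, 12.1 and 15.5 CPM in heterozygous KO, and 11.3, 18.2, 5.76 and 15.4 CPM in wild type. Again no homozygous KO library reached the lowest library of either other group. The fall was -2.31 on the log2 scale (SE 0.42, edgeR adjusted p = 0.00245) against wild type and -2.29 (SE 0.44, edgeR adjusted p = 0.00436) against heterozygous KO.

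Egr1 and Fosb were the 2 of 10 members called (adjusted p under 0.05) in homozygous KO against wild type, where 25.8% of all genes tested were called, and the 2 of 10 called against heterozygous KO, where 17.1% were. Both were lower. They were also the 2 whose groups did not overlap, beside 32.7% and 33.3% of all genes in the same comparisons. The share of members called is thus near or below that of all genes. The median log2 fold change of the 10 was -0.35 against wild type, beside -0.01 over all genes, and -0.73 against heterozygous KO. Both comparisons use the same homozygous KO libraries. With wild type replicates 1 and 2 as the only wild types, so without the columns that carry het, Egr1 was at -1.33 (SE 0.09, edgeR adjusted p = 4.50e-05) and Fosb at -2.53 (SE 0.40, edgeR adjusted p = 0.00327).

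Between heterozygous KO and wild type, 0 of 10 members were called by edgeR and 0 by DESeq2, beside 0.0154% of all genes, and 1 member, Egr1, had an unadjusted p under 0.05. The mean of Egr1 was 57.3 ± 2.26 CPM in the 3 heterozygous KO libraries (SD) and 71.2 ± 15.2 CPM in the 4 wild types (SD), a log2 difference of -0.31 (SE 0.14, edgeR adjusted p = 0.681). For Fosb the means were 12.5 ± 2.79 CPM (SD, n = 3) and 12.7 ± 5.41 CPM (SD, n = 4).

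None of the other 8 genes was called in any of the 3 comparisons. Fos, the founding AP-1 partner of JUN, was at 4.82, 23.8 and 13.2 CPM in homozygous KO, 19.8, 44.1 and 48.2 CPM in heterozygous KO and 19.0, 34.4, 9.42 and 54.0 CPM in wild type. The lowest value of each of the 3 groups came from the range 44 to 51, and the highest from the range 56 to 63. The log2 fold change of homozygous KO against wild type was -1.07 with an SE of 0.61 (edgeR adjusted p = 0.226).

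Jun, the DNA-binding partner of the FOS proteins, was at 23.1, 70.9 and 53.1 CPM in homozygous KO, 48.7, 115 and 106 CPM in heterozygous KO and 55.5, 64.6, 32.7 and 130 CPM in wild type. Junb, a JUN family member with a stronger role in dampening growth genes, was at 38.7, 150 and 101 CPM, then 45.6, 200.3 and 187 CPM, and 57.4, 72.4, 45.3 and 255 CPM in the same groups. In both genes the first library of each knockout group and the first 3 wild types lay below the rest of their group. Across groups this split held for Junb but not for Jun. For Jun the homozygous KO library at 53.1 CPM lay below the wild types at 55.5 and 64.6 CPM. Neither gene was called in any of the 3 comparisons (edgeR adjusted p of 0.291 or more). In the annotation of GRCm38, Jun shares exonic sequence with the antisense gene Junos and Junb with Prdx2, and the sources do not say whether counting used strand, so their counts may include reads of those genes.

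Ier2, an early-response nuclear protein, had the narrowest range, with 33.6, 54.4 and 44.1 CPM in homozygous KO, 32.3, 60.9 and 55.7 CPM in heterozygous KO and 29.2, 36.0, 42.4 and 59.8 CPM in wild type. Its groups overlapped widely. Ier3, an early gene that affects cell survival, was at 3.32, 17.5 and 12.5 CPM in homozygous KO, 1.63, 6.95 and 5.95 CPM in heterozygous KO and 2.14, 1.85, 1.88 and 8.45 CPM in wild type. It is the 1 member whose homozygous KO mean was well above the wild-type mean, 11.1 ± 7.19 CPM (SD, n = 3) beside 3.58 ± 3.25 CPM (SD, n = 4), with an edgeR adjusted p of 0.108.

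Dusp1 encodes a nuclear phosphatase that switches off MAP kinases, chiefly p38 and JNK. It was at 49.9, 107 and 87.2 CPM in homozygous KO, 61.3, 131 and 126 CPM in heterozygous KO and 65.9, 80.8, 48.8 and 138 CPM in wild type. The means of homozygous KO and wild type, 81.3 ± 28.9 CPM (SD, n = 3) and 83.5 ± 38.9 CPM (SD, n = 4), differed by far less than their spread. Its annotated span in GRCm38 is 56539 bases and shares exonic sequence with Ergic1, so its counts are uncertain as well.

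Dusp5 encodes a phosphatase that acts on ERK in the nucleus, and was at 43.3, 186 and 152 CPM in homozygous KO, 55.9, 205 and 187 CPM in heterozygous KO and 65.1, 63.8, 61.6 and 265 CPM in wild type. It shares exonic sequence with an antisense feature, AC137853.2. Sik1, a salt-inducible kinase that keeps the CREB coactivators out of the nucleus, was at 33.9, 139 and 127 CPM, then 68.2, 277 and 235 CPM, and 89.6, 82.2, 61.6 and 375 CPM in the same groups. For both genes 1 wild-type library, replicate 4, stood far above the other 3, and 1 library of each knockout group stood far below the other 2.

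Promoter windows were read for these genes because so many of them moved together between libraries. RefSeq (GRCm38.p6) gave a window for 7 of the 10 genes (Fos, Fosb, Jun, Junb, Ier3, Dusp1 and Dusp5). The 4 shown are those of Fos, of Dusp1 and Dusp5, which hold the full CRE and the CArG boxes, and of Ier3, which was higher in animals 56 to 63 as they were. Each runs 5′ to 3′ and ends at the base before an annotated exon, the first one for Fos, Dusp5 and Ier3. The Dusp1 window lies inside the annotated span of its gene, 26505590 to 26562128 on the minus strand. Annotated sequence of Dusp1 therefore also lies upstream of that window. Capitals mark CArG boxes, CREs (TGACGTCA) and CRE cores (TGACG), searched on both strands. The windows are chr12:85473640-85473889 (plus strand) for Fos, chr17:26508520-26508722 (minus strand) for Dusp1, chr19:53528895-53529108 (plus strand) for Dusp5 and chr17:35821463-35821683 (plus strand) for Ier3.
Fos: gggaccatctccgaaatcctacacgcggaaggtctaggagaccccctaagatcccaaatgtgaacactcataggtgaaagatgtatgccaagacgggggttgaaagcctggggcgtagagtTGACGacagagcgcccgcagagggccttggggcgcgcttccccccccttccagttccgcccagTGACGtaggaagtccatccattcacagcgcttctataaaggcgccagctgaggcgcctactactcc
Dusp1: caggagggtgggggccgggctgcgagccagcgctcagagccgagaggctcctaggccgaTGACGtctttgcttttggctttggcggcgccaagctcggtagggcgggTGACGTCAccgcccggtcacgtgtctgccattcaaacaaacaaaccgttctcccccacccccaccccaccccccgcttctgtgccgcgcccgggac
Dusp5: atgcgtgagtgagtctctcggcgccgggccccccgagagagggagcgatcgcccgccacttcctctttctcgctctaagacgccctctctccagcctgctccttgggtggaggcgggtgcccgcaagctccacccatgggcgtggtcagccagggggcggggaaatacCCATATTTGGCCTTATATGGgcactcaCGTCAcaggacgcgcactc
Ier3: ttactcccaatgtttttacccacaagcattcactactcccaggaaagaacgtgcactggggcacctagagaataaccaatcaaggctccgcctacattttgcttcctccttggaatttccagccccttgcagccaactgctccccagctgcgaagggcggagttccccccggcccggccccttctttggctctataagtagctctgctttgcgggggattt

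Within the 250 bases before the RefSeq start, the CRE core was found in 5 of the 7 windows (Fos, Fosb, Junb, Dusp1 and Dusp5), beside 17.8% of the 32851 promoters in the RefSeq table. The full CRE was found in 1 of 7 (Dusp1), beside 1.55% of all promoters, and each full CRE also counts as 2 cores. The CArG box was found in 1 of 7 (Dusp5, with 2 adjoining boxes), beside 1.47%. No window held the AP-1 site TGANTCA, found in 6.75% of promoters, and 1 (Fosb) held the EGR site GCGNGGGCG, found in 4.70%. A loose form of the NF-kB site was found in 6 of 7, but 45.8% of all promoters hold one. These are matches of letters in short windows, sites outside the windows were not searched, and no binding was measured.

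The range of animal numbers went with the level of most members in all 3 genotypes. Within each genotype the mean log2 level of every member but Egr1 was higher in animals 56 to 63. Each genotype has 1 library alone in 1 of the ranges, so such a difference can rest on that library. Across all groups the 5 libraries of the later range lay above all 5 of the earlier range for Junb, Ier2, Ier3, Dusp1, Dusp5 and Sik1, which is 6 of 10 members beside 3.11% of all genes. The split was noticed in these libraries and the list was drawn up with it known, so nothing is read from that share.

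With the genotype groups as terms, the log2 difference between the later and the earlier range was 2.09 (SE 0.13) for Ier3, 2.06 (SE 0.11) for Sik1 and 1.95 (SE 0.07) for Dusp5, the 3 genes picked for it. Among the other 7 it was 1.98 (SE 0.15) for Junb, 1.49 (SE 0.33) for Fos, 1.32 (SE 0.17) for Jun and 1.04 (SE 0.12) for Dusp1. These are differences of 3.93-fold for Junb and 2.06-fold for Dusp1. The smallest were 0.71 (SE 0.31) for Fosb, 0.71 (SE 0.11) for Ier2 and -0.17 (SE 0.12) for Egr1. The selection had no numerical threshold, and of the 3 picked genes Dusp5 lay lowest, while Junb, which was listed by name, lay just above it.

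**Figure D2:**
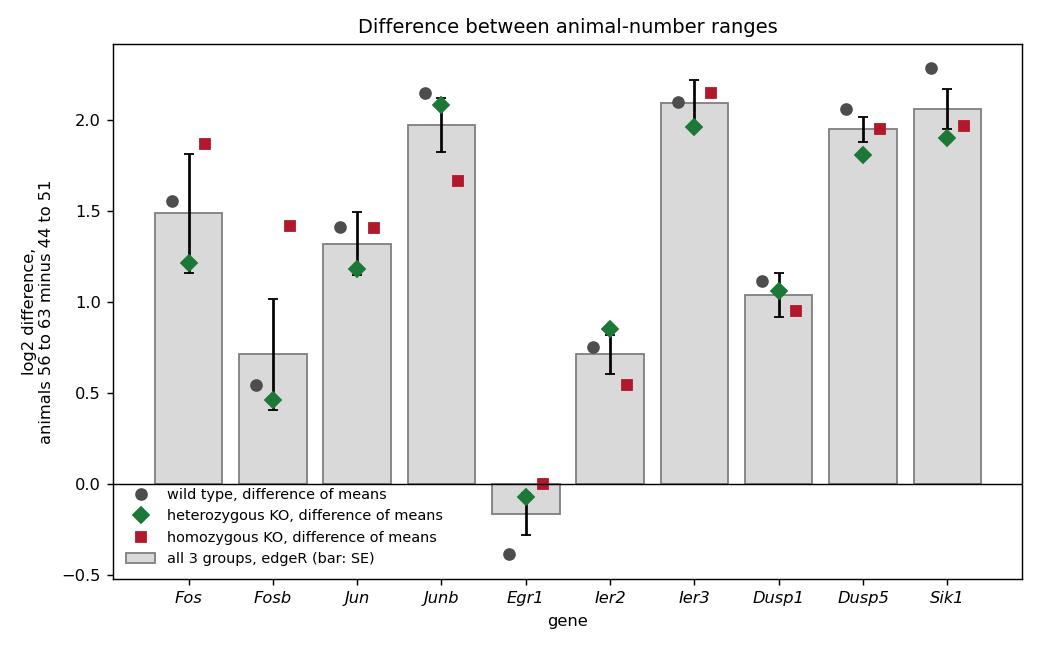
Log2 difference between animals 56 to 63 and animals 44 to 51 for each gene. Grey bars with SE are from the edgeR fit over all 3 groups, and symbols are the difference of mean log2 CPM within wild type (1 library against 3), heterozygous KO (2 against 1) and homozygous KO (2 against 1). Except for Egr1, the 3 genotypes gave differences above 0 for every gene.

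The size of the difference within a genotype varied more for some genes than for others. For Fos, which was not picked for it, it was 1.87 on the log2 scale within homozygous KO, 1.22 within heterozygous KO and 1.56 within wild type. For Fosb the corresponding values were 1.42, 0.46 and 0.54, for Dusp1 they were 0.95, 1.06 and 1.12, and for Egr1 0.00, -0.073 and -0.39. A fit with an interaction of genotype and animal-number range called 0 of 10 members in each comparison, beside 0.041% of all genes for homozygous KO against wild type, 0.0% for heterozygous KO against wild type and 0.0205% for homozygous against heterozygous KO, and 0 members had an unadjusted interaction p under 0.05. Each genotype has 1 library alone in 1 of the ranges, so this fit does not show that the genotypes were alike.

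The summed level of thymic epithelium markers did not overlap between the ranges. Ccl25 of this list was not matched to a single feature and was left out. The other 7 genes were Epcam, Krt5, Krt8, Krt14, Foxn1, Psmb11 and Aire. Their sum was between 39.95 and 49.2 CPM in animals 44 to 51 and between 55.9 and 118 CPM in animals 56 to 63. None of the 7 was at 0. Of these only Krt8, a keratin of cortical epithelium, passed the edgeR test for animal number, with 17.4 to 23.6 CPM in the earlier and 25.4 to 57.7 CPM in the later range. The list held 0 calls without homozygous KO replicate 1, wild type replicate 1 or 4, or any 1 heterozygous KO library, and 2 without homozygous KO replicate 2. The sums for thymocytes, endothelium, fibroblasts, macrophages, neutrophils, B cells and erythroid cells overlapped between the ranges. The 2 libraries with the fewest counts, 39.8 and 41.0 M, belong to the earlier range. The part of epithelial content, depth or tissue handling in the members' difference was not tested.

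When the animal-number range was added as a term to the genotype comparison, more members passed. In homozygous KO against wild type 9 of 10 were called, beside 27.2% of all genes, and in homozygous against heterozygous KO 7 of 10, beside 21.7%. Of the 7 genes not picked for the animal-number difference, 6 were called lower than in wild type and 4 were called lower than in heterozygous KO. All 7 had a log2 fold change below 0 in both comparisons. A list rich in genes that follow the animal number has small residual error in this fit by the way it was drawn up. Its p-values are therefore too small by an unknown amount. In the later range the differences from wild type rest on 1 wild type, replicate 4. The genotype differences of this fit were not recomputed without single libraries.

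In that fit the log2 fold change against wild type was -1.76 (SE 0.40) for Fos, -2.68 (SE 0.38) for Fosb, -1.08 (SE 0.20) for Jun and -0.81 (SE 0.17) for Junb. Egr1 changed little from the fit without the term, at -1.33 (SE 0.14). Dusp1 stood at -0.45 (SE 0.15), Dusp5 at -0.57 (SE 0.08) and Sik1 at -1.31 (SE 0.13). Ier3 was the exception, at 0.81 (SE 0.15) in the other direction, and Ier2 was not called at -0.21 (SE 0.13, edgeR adjusted p = 0.265).

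Within each range the homozygous KO mean lay below the wild-type mean in 9 of 10 genes, with Ier3 above. In animals 44 to 51, where 1 homozygous KO library met 3 wild types, Fos differed by -1.92, Jun by -1.08 and Sik1 by -1.18 on the log2 scale. In animals 56 to 63, where 2 homozygous KO libraries met 1 wild type, the same genes differed by -1.61, -1.09 and -1.50. Ier3 differed by 0.76 and 0.80. No arm of 1 library allows a test, and the 1 wild type of the later range is replicate 4, whose column heading adds het.

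Heterozygous KO differed little from wild type in this fit too. All 10 log2 differences were below 0, from -0.34 for Sik1 to -0.07 for Ier2, whereas 8 of the 10 were above 0 without the term. None was called in either fit.

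**Figure D3:**
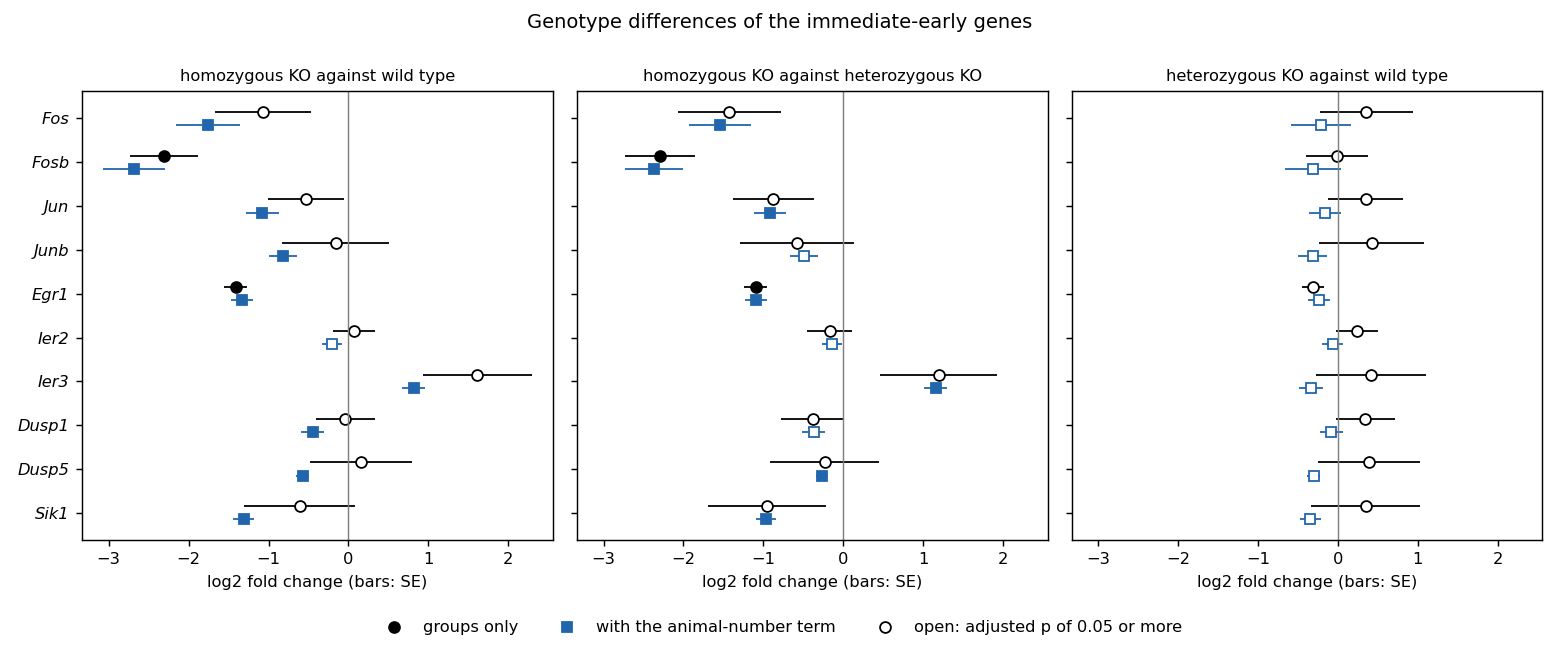
Log2 fold change with SE of each gene in the 3 genotype comparisons, from the fit on groups only (black circles) and with the animal-number range as a term (blue squares). Filled symbols had an edgeR adjusted p under 0.05. Fosb and Egr1 were filled in both fits against wild type and against heterozygous KO, Ier3 lay to the right, and the SE of the other genes shrank once the range was a term.

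Summed levels of some cell type markers also differed between the genotypes. The 10 thymocyte markers summed to between 9136 and 9573 CPM in homozygous KO, 10771 and 11515 CPM in heterozygous KO and 11078 and 12335 CPM in wild type, so every homozygous KO library lay below all others. The 8 macrophage and monocyte markers summed to between 40.9 and 69.4 CPM in homozygous KO and between 66.8 and 95.1 CPM in wild type, with 6 of 8 lower. The 8 neutrophil markers summed to between 55.97 and 312 CPM in homozygous KO and between 7.90 and 24.4 CPM in wild type, with 6 of 8 higher. B-cell markers fell in 6 of 8, fibroblast markers rose in 4 of 8 and fell in 1, and 2 of 10 thymocyte markers rose and 2 fell. Over all genes 25.8% were called in homozygous KO against wild type. The median log2 fold change of the thymocyte markers there was -0.04, beside -0.01 over all genes. The B-cell sums overlapped, at 299 to 344 CPM in homozygous KO and 335 to 399 CPM in wild type. The fibroblast sums did as well, at 19.9 to 57.3 CPM and 27.8 to 39.4 CPM. Without homozygous KO replicate 2, or with the animal-number range as a term, the fibroblast rises numbered 0. They numbered 1 when wild type replicate 1 was left out and 2 when replicate 3 or 4 of that group was, and 1 thymocyte fall was left without homozygous KO replicate 3 or wild type replicate 1 or 2. No marker of these lists was at 0 in every library of a group. The part of such cells in the fall of Egr1 and Fosb was not tested.

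Counts for the other lists in homozygous KO against wild type are read beside the 25.8% of all genes called there. Of 12 other AP-1, MAF and EGR factors, 4 fell, 0 rose and 8 were not called, with a median log2 fold change of -0.88 beside -0.01 over all genes. Egr2 and Egr3, which share the zinc-finger domain of Egr1 and act after T-cell receptor signals in selection, fell by 2.19 (SE 0.27, edgeR adjusted p = 1.79e-04) and by 2.07 (SE 0.44, edgeR adjusted p = 0.00552). Egr2 averaged 2.76 ± 0.646 CPM over the 3 homozygous KO libraries (SD), against 12.6 ± 4.46 CPM over the 4 wild types (SD). Batf and Batf3, AP-1 factors of lymphoid and dendritic cells, fell by 0.65 (SE 0.16) and by 2.24 (SE 0.58). All 4 were also lower than in heterozygous KO, and 0 of 12 were called in heterozygous KO against wild type.

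Of 30 other early-response regulators tested, 4 fell and 2 rose against wild type. The largest fall was that of Nr4a3, a nuclear receptor induced by the T-cell receptor, from a wild-type mean of 23.4 ± 6.73 CPM (SD, n = 4) to a homozygous KO mean of 6.34 ± 2.15 CPM (SD, n = 3), which is -1.89 on the log2 scale (SE 0.27, edgeR adjusted p = 5.44e-04). Klf2, a factor needed for thymocyte exit, fell by 1.58 (SE 0.21) and Myc fell by 0.64 (SE 0.17). Klf10, a TGF-beta early gene, rose by 0.58 (SE 0.18) and Pim1, a survival kinase, by 0.48 (SE 0.15). The list's median was -0.10, beside -0.01 over all genes. There were 2 falls without homozygous KO replicate 3, and 0 rises without homozygous KO replicate 2 or 3 or wild type replicate 1, 2 or 3, and 1 rise without heterozygous KO replicate 3.

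Regulators of the same signals were called in both directions. Of 12 other inhibitors of the ERK pathway, 0 fell and 2 rose, Dusp4 by 0.46 (SE 0.14, edgeR adjusted p = 0.0331) and Spred2 by 0.29 (SE 0.05, edgeR adjusted p = 0.00167). Of 23 MAP kinases and SRF or CREB factors that act upstream, 4 rose and 2 fell. Crtc3, a CREB coactivator, rose by 0.46 (SE 0.06), Mapk14, the p38 kinase, by 0.29 (SE 0.04), and Elk1, a partner of SRF, fell by 0.34 (SE 0.09). Of 12 early targets of NF-kB, 2 rose, Tnf by 1.38 (SE 0.25) and Cxcl2 by 3.01 (SE 0.93), and 2 fell, Bcl3 by 1.24 (SE 0.17) and Relb by 0.81 (SE 0.21). These small counts rest on single libraries. ERK inhibitors numbered 1 rise without homozygous KO replicate 2 or wild type replicate 1, 2 or 3, and 4 rises without homozygous KO replicate 1 or wild type replicate 4. Upstream genes numbered 2 rises and 1 fall without homozygous KO replicate 3, and 1 fall without wild type replicate 1. NF-kB targets numbered 1 rise without homozygous KO replicate 2 or wild type replicate 1, 2 or 3, and 1 fall without homozygous KO replicate 1.

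In heterozygous KO against wild type edgeR called 0 of the 183 genes of all 16 other lists, DESeq2 called 0, and 1 had an unadjusted p under 0.05.

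For the animal-number ranges, the early genes outside the list are given as a description beside 3.45% of all genes called higher. Of the 30 other early-response regulators 20 were higher in animals 56 to 63 and 1, Myc, was lower, with a median log2 difference of 0.71 beside 0.00 over all genes. Gadd45b, a stress-response gene, was at 2.98 to 5.38 CPM in the earlier range and 8.97 to 16.5 CPM in the later. NF-kB early targets were higher in 8 of 12, among them Tnfaip3, an inhibitor of that pathway, at 273 to 453 CPM and 719 to 976 CPM. Other AP-1, MAF and EGR factors were higher in 5 of 12, with Atf3 1.90 (SE 0.26) higher, while Egr2 and Egr3, like Egr1, lay below 0 at -0.53 (SE 0.17) and -0.81 (SE 0.28) without being called. ERK inhibitors were higher in 6 of 12, with Spry1 at 8.24 to 10.7 CPM and 16.7 to 20.6 CPM. Leaving out 1 library at a time kept the count of early-response regulators called higher between 16 and 21 and that of AP-1, MAF and EGR factors at 4 or 5, whereas without wild type replicate 4 there were 3 ERK inhibitors and 5 NF-kB targets, and without homozygous KO replicate 1 there were 5 NF-kB targets.

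Of the genes upstream of this response, 1 of 23 was higher (Crtc2) and 1 lower (Creb1). In the 10 fits that each left out 1 library the higher count was 0 in all but the one without wild type replicate 3. The lower count was 0 without any 1 homozygous KO library, heterozygous KO replicate 2 or wild type replicate 4. In lists of other responses, 3 of 11 heat-shock genes, 4 of 9 glucocorticoid-induced genes and 2 of 10 hypoxia-induced genes were higher, and 0 were lower. Without wild type replicate 4 these counts were 0, 1 and 1, glucocorticoid-induced genes numbered 1 without homozygous KO replicate 1, and they numbered 2 without any 1 heterozygous KO library. Over all genes 674 were called higher, and 195 without wild type replicate 4. Whether these shares differ from each other was not tested. Vegfa, in the hypoxia list, was at 13.6 to 26.3 CPM in the earlier range and 23.3 to 55.4 CPM in the later.

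**Figure D4:**
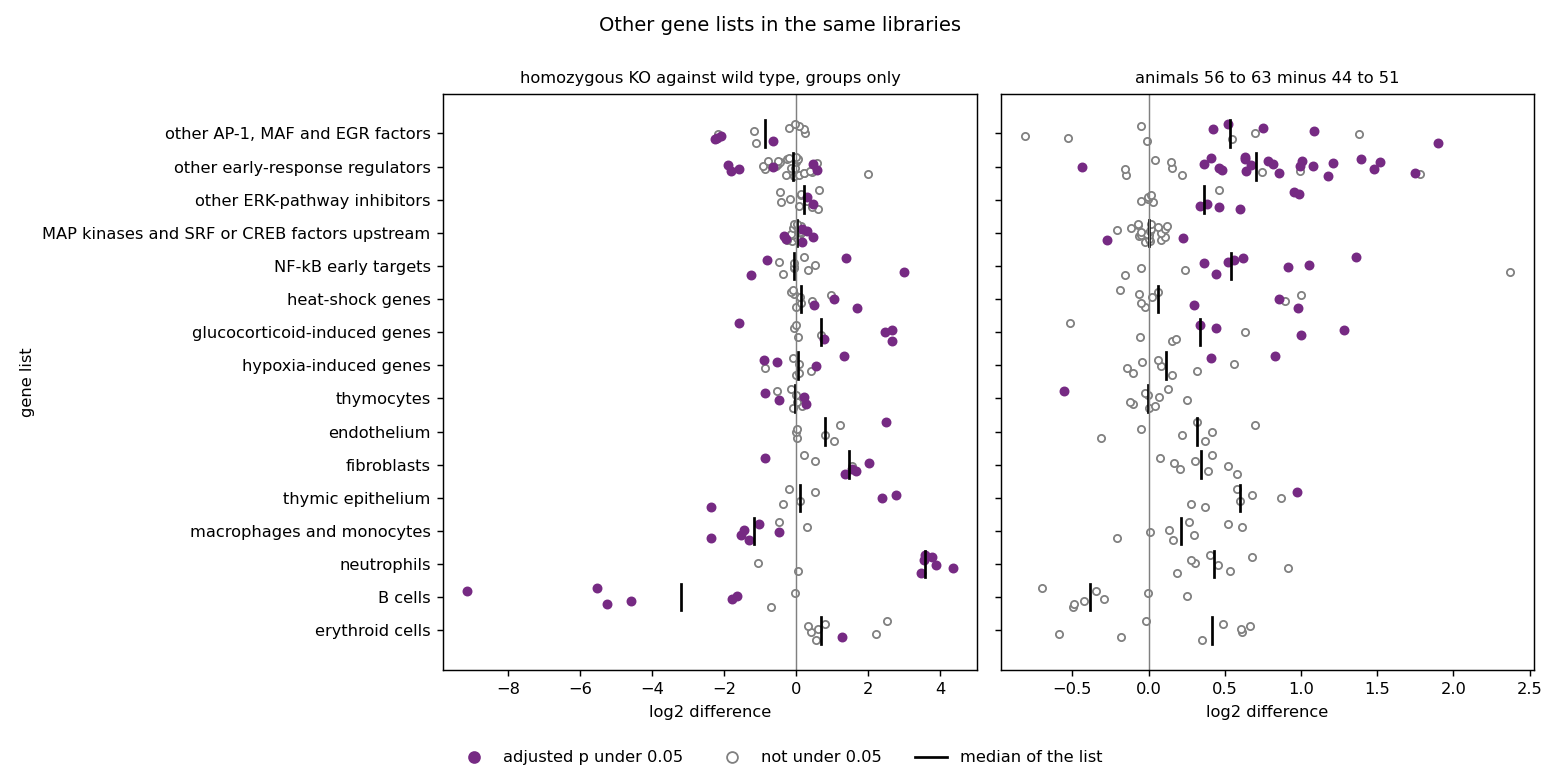
Log2 difference of each gene of the 16 other lists, for homozygous KO against wild type (left) and for animals 56 to 63 minus animals 44 to 51 with genotype as a term (right). Filled points had an edgeR adjusted p under 0.05 and black bars are list medians. On the right, filled points gather above 0 in the AP-1, early-response, ERK-inhibitor and NF-kB lists, and on the left the medians of the AP-1, MAF and EGR factors and of macrophage and B-cell markers lie below 0.

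Across the 10 libraries Jun, Sik1, Junb and Dusp1 followed the mean of the other members most closely, with Pearson r of 0.973, 0.978, 0.951 and 0.949, followed by Fos and Dusp5. Ier3 at 0.473, Fosb at 0.548 and Egr1 at 0.046 followed it least. Among 9814 genes outside the list, the 5 with the highest r to the members' mean standardised log2 level were Maff at 0.979, Rgs2 at 0.974, Tspyl1 at 0.972, Dnajb9 at 0.971 and Zkscan14 at 0.966. These are descriptions over 10 libraries that fall into 2 ranges of animal numbers and 3 genotypes, so a high r restates that shared split. Maff ranged from 5.42 to 7.53 CPM in the earlier range and from 8.45 to 13.7 CPM in the later.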

How the data were processed

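The authors deposited 1 table of raw read counts per gene, from ribosomal-RNA-depleted stranded libraries. The submitters' processing notes name CASAVA, STAR 2.4.1d and HTSeq 0.6.1p1, and the builds NCBIM37 and mm9, with no role or order, whereas the study's methods describe a BWA-based pipeline with human references. The strand setting and the annotation release are not given in the sources used here. Columns were matched to samples by animal and library number, and groups follow the titles, although 2 wild-type column headings add the word het. Rows named otherwise than by Ensembl gene held 1.74% to 2.29% of each library. Symbols, exon lengths and overlaps came from GENCODE for GRCm38, which is not the build named.

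Counts were tested with edgeR 4.0.16 in R 4.3.3 (TMM, filterByExpr, glmQLFit and glmQLFTest, all 10 libraries in 1 fit, adjusted p under 0.05). The common biological coefficient of variation was 0.207. DESeq2 1.42.0 and the settings in the closing section were alternatives, and the fit was tested on simulated data. Log2 CPM used a prior count of 2. In the 12 within-group pairs of libraries the chi-square per degree of freedom was 13.5 or more, so no library was counted once for 2. From each list the text names the genes called in more than 1 comparison, the largest called rise and fall, and the largest animal-number differences, and gives cell type lists mainly as counts; Myc, Pim1, Vegfa, Krt8 and Crtc2 were named after their values were seen. Members and lists were chosen with earlier results of these data known.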

Additional observations from a re-analysis of the deposited data

Results flagged for a closer look

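In the wild-type group 4 of the 10 genes had 1 library far from the other 3. The gap between the highest library and the next, as a share of the whole range, was 0.871 for Junb, 0.957 for Ier3, 0.983 for Dusp5 and 0.911 for Sik1, above Dixon's critical value at the 95% level for 4 samples. Chance alone exceeds that value in about 1 of 20 groups. In all 4 genes the high library was wild type replicate 4, the 1 wild type among animals 56 to 63. Groups of 3 cannot be examined in this way. Dusp5, Ier3 and Sik1 were picked for their difference between these animal numbers, so for them the gap restates the choice. Junb was listed with that split known, so its gap is no independent support either. The cause was not tested.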

How the results depend on the processing

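Egr1 and Fosb stayed lower and called in homozygous KO under every setting tried, 22 against wild type (log2 fold change -1.51 to -1.26 for Egr1 and -2.68 to -1.96 for Fosb) and 20 against heterozygous KO (-1.19 to -1.03 and -2.54 to -1.96). Leaving out 1 library at a time gave 2 to 3 called members against wild type, 2 to 2 against heterozygous KO and 0 to 0 in heterozygous KO against wild type. The animal-number term gave 9 and 7 called members, beside 5303 and 4238 of all 19511 genes. With Xist added, a setting chosen after seeing the data, there were 8 and 6, beside 3986 and 3501. These counts include genes picked for the animal-number difference, and their p-values are too small for the reason given above.

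Nothing states that replicate numbers pair the libraries. Deviations of same-numbered libraries from their group means correlated at -0.10 to 0.23, over 0.1 in 3 of 9 pairs, which cannot decide it. Those 3 pairs are the ones of replicate 1, all within animals 44 to 51. With replicate number as a block 3 members were called against wild type (Ier3 added, at 2.16), 3 against heterozygous KO (Fos added, at -1.59) and 0 in heterozygous KO against wild type. Against wild type the replicate block turned Junb to 0.46, Dusp1 to 0.25 and Sik1 to 0.038, and in heterozygous KO Fosb to 0.14.

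Log2 values not called without added terms also changed sign, as follows, and the cause was not tested. In homozygous KO against wild type they were -0.21 for Ier2 and -0.57 for Dusp5 with the animal-number term (-0.16 and -0.63 with Xist added), -0.22 and -0.37 with wild types of 1 wt word, and 0.57 for Junb, 0.15 for Dusp1 and 0.22 for Sik1 with those of 2 wt words. Xist as a covariate gave 0.16 for Junb and 0.086 for Dusp1, and library totals gave -0.023 for Ier2. Leaving out single libraries gave -0.62 to 0.73 for Junb, -0.11 to 0.29 for Ier2, -0.28 to 0.32 for Dusp1, -0.22 to 0.999 for Dusp5 and -0.92 to 0.36 for Sik1, and -0.64 to 0.17 for Dusp5 against heterozygous KO.

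In heterozygous KO against wild type the animal-number term gave -0.22 for Fos, -0.16 for Jun, -0.32 for Junb, -0.066 for Ier2, -0.34 for Ier3, -0.082 for Dusp1, -0.31 for Dusp5 and -0.34 for Sik1. With Xist added these were -0.34 for Fos, -0.34 for Jun, -0.51 for Junb, -0.57 for Ier3, -0.19 for Dusp1, -0.40 for Dusp5 and -0.50 for Sik1. Wild types of 1 wt word gave 0.24 for Fosb, -0.056 for Junb, -0.042 for Ier2, -0.092 for Ier3, -0.13 for Dusp5 and -0.17 for Sik1, Xist gave 0.23 for Fosb, and leaving out single libraries gave -0.26 to 0.21 for Fosb and -2.84e-04 to 1.32 for Sik1.

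The animal-number differences moved by less than the residual spread in all 110 alternatives. Dusp5, Sik1 and Ier3 were picked for this difference and the whole list was drawn up with it known, so nothing is read from that. Over all genes 5030 were called in homozygous KO against wild type (2670 with wild types of 1 wt word), 3342 against heterozygous KO (2153 without heterozygous KO replicate 3) and 3 in heterozygous KO against wild type (71 with DESeq2, 5 with the replicate block, 6 without wild type replicate 4). By animal number 1320 were called, and 365 without wild type replicate 4 and 489 without homozygous KO replicate 1. Library totals in place of TMM shifted the median of all genes from -0.01 to -0.11 against wild type and the share of higher calls from 48.6% to 29.0%. The lowest member count was 77. The libraries with the fewest counts were wild type replicates 1 and 2, both of the earlier range, and the part of depth was not tested.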
